A study of Mus musculus with 8 samples.

Results

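The aminoacyl-tRNA synthetases are the enzymes that join each amino acid to its transfer RNA before the ribosome uses it. They were taken from the count table as the 36 genes named in a fixed list, matched through their Ensembl mouse gene IDs, out of 21859 genes in all. The list holds 20 cytosolic genes and 16 mitochondrial ones, the latter with a symbol ending in 2, and all 36 were found. The methionine enzyme is listed as Mars1 and is called Mars in GENCODE M21.

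Messenger RNA was counted in the mouse leukaemia line PER-M60, in 8 cultures. Control medium was used for 4 of them, and the other 4 received medium conditioned by osteoclasts, the cells that resorb bone. The labels give no genetic change, no drug and no duration of culture, and all 8 cultures are of the same line, so the cultures measure the spread between dishes of that line and not between lines or animals.

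Most cells carry separate synthetases for the cytosol and for the mitochondrial matrix, nearly all encoded in the nucleus by different genes. Exceptions are Gars and Kars, each of which encodes both the cytosolic and the mitochondrial enzyme, and Eprs, whose protein joins the glutamate and the proline enzyme in a single chain. The enzymes fall into class I and class II, which have unrelated catalytic folds, and several cytosolic ones sit together in the multisynthetase complex. When an amino acid runs short, uncharged transfer RNA activates the kinase GCN2, and the transcription factor ATF4 is then made. Many cytosolic synthetase genes are known targets of ATF4, which binds DNA with C/EBP partners at an element whose core reads TGATGNAA.

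Total counts ran from 15391754 to 21637966 per culture, and 10729 genes passed the filter on low counts. All 36 synthetases passed it, with between 163 counts (Fars2) and 15015 counts (Eprs) in a culture. Values are given as normalised CPM, that is, counts scaled to a library of common size (CPM) with TMM factors. A log2 fold change compares conditioned with control medium, and a gene was called when its Benjamini-Hochberg adjusted p over all tested genes was under 0.05 in edgeR's quasi-likelihood test. The markers Ptprc, Cd79a, Cd79b, Vpreb1, Igll1, Pax5 and Ebf1, of leukocytes and the B lineage, all passed the filter; the labels say leukaemia cells and name no lineage. Their summed level, scaled by total counts without TMM factors, was 3850 to 3900 CPM in control and 4070 to 4120 CPM in conditioned medium. Of these 7, 5 were called higher, beside 15.7% of all tested genes, and Igll1 and Ebf1 were not called. The part of this shift in the results below was not tested. Of 9 osteoclast markers, Ocstamp and Dcstamp were at 0 in all cultures and 5 more had from 0 to 7 counts in a culture. Acp5 had 22.9 ± 1.51 and 24.4 ± 1.42 normalised CPM and was not called. Itgb3 had 12.9 ± 1.41 and 10.7 ± 0.376 normalised CPM and was called lower (log2 fold change -0.25, adjusted p = 0.0185 in edgeR). Acp5 and Itgb3 made up nearly all of the sum of the 9 markers. That sum, also without TMM factors, was 35.9 to 37.1 CPM in control and 33.9 to 37.2 CPM in conditioned medium. In bulk RNA, fewer cells of a type and less RNA per cell cannot be told apart.

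Promoter matches to the ATF4 element are shown first, because each member that held one was among the 10 cytosolic genes with the largest rises. Whether ATF4 has a part in the changes was not tested. RefSeq windows of 300 bases (250 before to 50 after the start, build GRCm38.p6) were given for 27 of the 36 members, and Cars, Hars, Lars, Nars, Rars, Vars, Wars, Hars2 and Pars2 had none. The windows were searched for TGATGNAA on both strands, which reads TTNCATCA on the other strand. Members with a match were Aars, Gars, Iars, Tars and Yars, and a site of each is shown. Starts and transcripts here are those of RefSeq, and can differ from the GENCODE M21 gene positions given below. In GENCODE M21 the Aars gene, for instance, begins at 111033144, well before its site. Each line gives 28 bases, 5′ to 3′ on the strand of the gene, with the 8 matching bases in capitals.
Aars, chr8:111033841-111033868, plus strand, match beginning at base 10 of the transcript: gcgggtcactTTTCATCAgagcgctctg
Gars, chr6:55037961-55037988, plus strand, match beginning 30 bases before the start: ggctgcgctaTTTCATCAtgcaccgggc
Tars, chr15:11399656-11399683, minus strand, match beginning 15 bases before the start: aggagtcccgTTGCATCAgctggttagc
Iars, chr13:49682127-49682154, plus strand, match beginning at base 8 of the transcript: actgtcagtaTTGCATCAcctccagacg
Yars, chr4:129189896-129189923, plus strand, match beginning at base 4 of the transcript: cgagctcagcTGATGCAAcccgacggga

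In 4 of the 5 matches shown the element ran on the strand opposite to the gene, and in Yars it ran on the same strand. Among cytosolic members with a log2 fold change of at least 0.2, 5 of 7 with a window held a match, and Sars and Eprs did not. That cutoff was set after the values were seen, as was the choice to count matches after the start, where 3 of the 5 sites shown lie (Aars, Iars and Yars), so these counts are a description only. None of the other 6 cytosolic members with a window (Dars, Farsa, Farsb, Kars, Mars1 and Qars) and none of the 14 mitochondrial ones did. Of all 32851 RefSeq windows of this length, 3.97% held a match (3.45% before the start), and of all 27025 genes with a window, 4.51% did. A match is a string of letters and not a measured binding site, and its absence says only that these letters are not in the window.

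The 250 bases before the start are given in full for Gars and Tars, whose sites shown lie in that stretch, and for Sars, which had the largest rise of all members and no match.
Gars, chr6:55037751-55038000, plus strand: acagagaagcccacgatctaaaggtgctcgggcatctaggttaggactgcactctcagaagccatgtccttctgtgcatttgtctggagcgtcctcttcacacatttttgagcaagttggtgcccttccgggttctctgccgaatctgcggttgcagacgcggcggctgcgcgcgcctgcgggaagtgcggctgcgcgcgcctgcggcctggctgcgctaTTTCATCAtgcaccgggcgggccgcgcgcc
Tars, chr15:11399659-11399908, minus strand: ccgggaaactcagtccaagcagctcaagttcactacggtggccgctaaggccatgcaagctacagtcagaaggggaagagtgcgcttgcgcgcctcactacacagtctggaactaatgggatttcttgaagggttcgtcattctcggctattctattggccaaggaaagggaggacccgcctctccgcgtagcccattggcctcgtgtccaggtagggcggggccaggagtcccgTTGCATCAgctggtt
Sars, chr3:108445260-108445509, minus strand: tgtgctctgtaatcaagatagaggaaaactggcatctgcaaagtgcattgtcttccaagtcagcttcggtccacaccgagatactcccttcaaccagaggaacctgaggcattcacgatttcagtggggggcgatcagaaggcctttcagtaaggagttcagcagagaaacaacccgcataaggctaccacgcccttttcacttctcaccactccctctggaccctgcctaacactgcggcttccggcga

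Most cytosolic synthetase mRNAs were higher in conditioned medium, while most mitochondrial ones were not called and more of them fell than rose. Of the 20 cytosolic genes, 13 rose, 1 fell (Farsa) and 6 were not called, against 30.5% of all tested genes called in either direction, 15.7% higher and 14.8% lower. Of the 16 mitochondrial genes, 1 rose (Wars2), 5 fell (Hars2, Cars2, Yars2, Lars2 and Mars2) and 10 were not called. The median log2 fold change was 0.16 for the cytosolic genes (range -0.23 to 0.36) and -0.08 for the mitochondrial genes (range -0.27 to 0.20), beside -0.01 for all tested genes. The mitochondrial median was -0.02 without control replicate 2 and -0.05 without conditioned replicate 3. Scaling by total counts alone gave 11 higher and 3 lower cytosolic genes (Dars and Kars added to Farsa) and 0 higher and 6 lower mitochondrial ones, and over all genes it gave 1383 higher and 2012 lower in place of 1689 and 1584. No test compared the compartments with each other as sets.

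**Figure D1:**
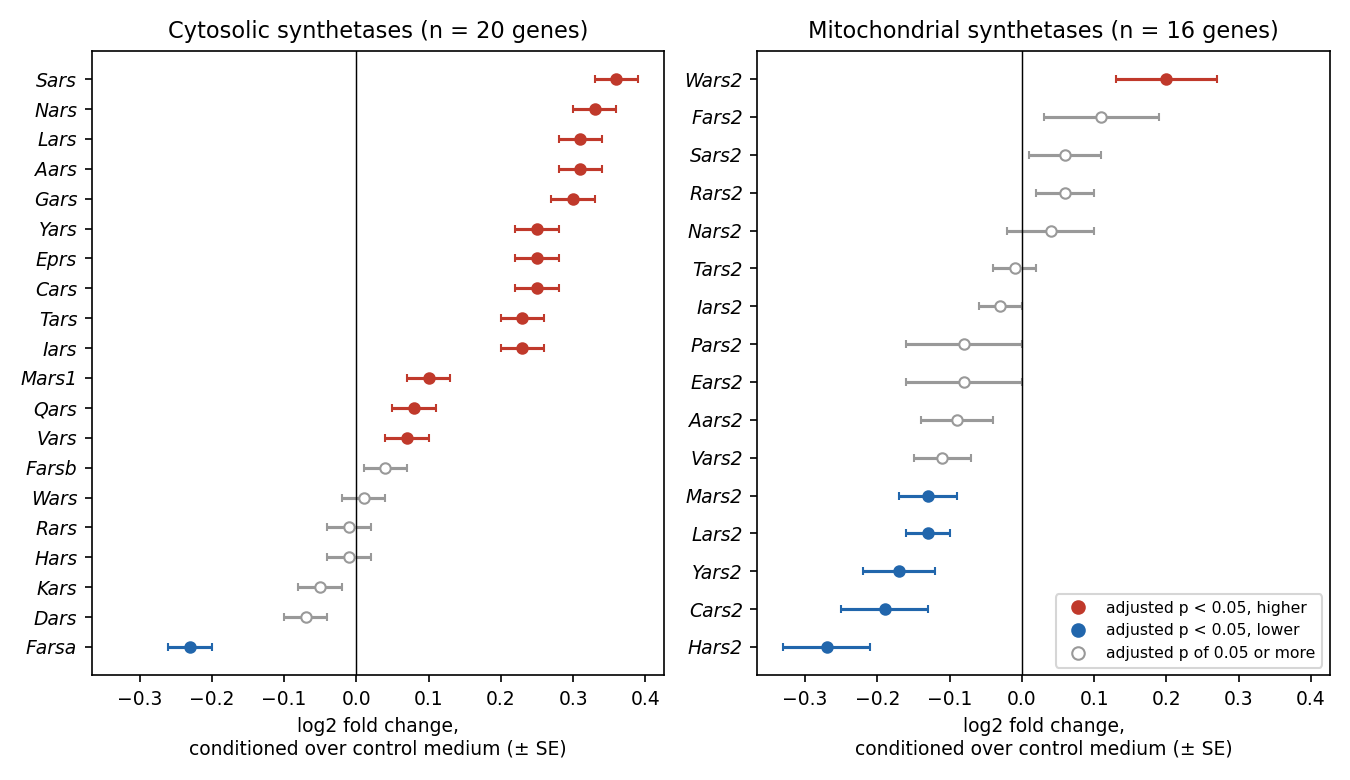
Log2 fold change of each synthetase gene in conditioned over control medium, with bars of 1 standard error, for the 20 cytosolic genes (left) and the 16 mitochondrial genes (right). Filled points passed an adjusted p of 0.05; 10 cytosolic genes stand together between 0.23 and 0.36, apart from the next at 0.10, and the mitochondrial genes run from -0.27 to 0.20.

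The summed level of the cytosolic genes was 5323, 5376, 5326 and 5318.5 normalised CPM in control replicates 1 to 4. In conditioned replicates 1 to 4 it was 6091, 6136, 6039 and 5944, and every conditioned culture lay above every control culture. The means were 5336 ± 26.9 and 6053 ± 82.7 (SD, n = 4 each), a ratio of 1.134. The mitochondrial genes summed to 743.7, 742.8, 720.6 and 724.6 in control medium and 693.5, 713.6, 699.3 and 710.0 in conditioned medium, a ratio of means of 0.961. These groups did not overlap either, but the nearest cultures, control replicate 3 and conditioned replicate 2, were close. The cytosolic sum was 7.28 ± 0.104 times the mitochondrial sum in control medium and 8.60 ± 0.170 times in conditioned medium.

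The cytosolic changes were not evenly spread. In an upper range, 10 genes had a log2 fold change between 0.23 and 0.36 (Sars, Nars, Lars, Aars, Gars, Yars, Cars, Eprs, Tars and Iars), and the next gene, Mars1, was at 0.10. The cutoff of 0.2 between them was set after the values were seen. Over all tested genes, 7.2% were called higher with a log2 fold change of at least 0.2, and 0 of the 16 mitochondrial genes were, since Wars2, printed as 0.20, lay just under the cutoff. The largest rise of a member was 1.29-fold, and the spread between cultures was small beside it. In 13 cytosolic genes every conditioned culture lay above every control culture and in Farsa every one lay below, whereas groups did not overlap in 28.2% of all tested genes (15.2% higher, 12.9% lower).

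Sars, the serine enzyme (ENSMUSG00000068739, chromosome 3, 108424865 to 108445209), changed most. It had 232, 237, 234 and 239 normalised CPM in control replicates 1 to 4 and 308, 303, 302 and 298 in conditioned replicates 1 to 4. The lowest conditioned culture was thus well above the highest control culture. In edgeR's test the log2 fold change came to 0.36 ± 0.03 (SE), with an adjusted p of 6.02e-12.

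Nars, the asparagine enzyme (ENSMUSG00000024587, chromosome 18, 64499647 to 64516652), had 412, 410.5, 414 and 417 normalised CPM in control medium and 518, 532, 513 and 509 in conditioned medium. The control cultures were almost identical, with an SD of 2.65, and the log2 fold change was 0.33 (± 0.03 SE, adjusted p = 2.84e-11 in edgeR). Lars, the leucine enzyme and a member of the multisynthetase complex, had 239, 247, 236 and 248 against 291, 312, 309.6 and 293. Conditioned replicates 2 and 3 were the higher pair, and all 4 exceeded the controls (log2 fold change 0.31 ± 0.03 SE, adjusted p = 1.35e-09 in edgeR).

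Aars, the alanine enzyme (ENSMUSG00000031960, chromosome 8, 111033144 to 111057664), had 316, 302, 313 and 316 normalised CPM in control medium. In conditioned medium it had 389.8, 390.4, 386 and 380.5, a narrow band above all controls, with a log2 fold change of 0.31 ± 0.03 (SE; adjusted p = 1.37e-10 in edgeR). In GENCODE M21, 14.3% of its exon length is shared with Exosc6 on the same strand, so its count may leave out reads there. Gars, the glycine enzyme of both compartments (ENSMUSG00000029777, chromosome 6, 55038007 to 55079500), had 475, 499, 461 and 481 against 591, 606, 588 and 576. It was the most abundant member per length and rose 1.23-fold (log2 fold change 0.30 ± 0.03 SE, adjusted p = 7.05e-10 in edgeR).

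Yars, Cars and Eprs had the same log2 fold change of 0.25 (SE 0.03 each), with edgeR adjusted p of 3.18e-08, 9.90e-08 and 1.29e-08. Yars, for tyrosine, had 202, 199, 193 and 194 normalised CPM in control and 240.4, 238, 234 and 228 in conditioned medium. Cars, for cysteine, had 160.3, 154, 162 and 157 against 194, 191, 181 and 187. The groups were apart in both genes, and the gap between the nearest cultures was wider in Yars than in Cars. Eprs, the joined glutamate and proline enzyme of the complex, had 611, 613, 633 and 629 against 764, 735, 741 and 715 and was the member with the most counts.

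Tars, the threonine enzyme, rose from 283 ± 6.56 to 332 ± 1.88 normalised CPM (SD, n = 4 each), and Iars, the isoleucine enzyme of the complex, from 254 ± 2.20 to 298 ± 8.23. Both had a log2 fold change of 0.23 (SE 0.03), with edgeR adjusted p of 6.61e-08 for Tars and 9.27e-08 for Iars. The 10 genes of the upper range were called in every alternative fit that was run, including each fit that left out 1 culture.

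**Figure D2:**
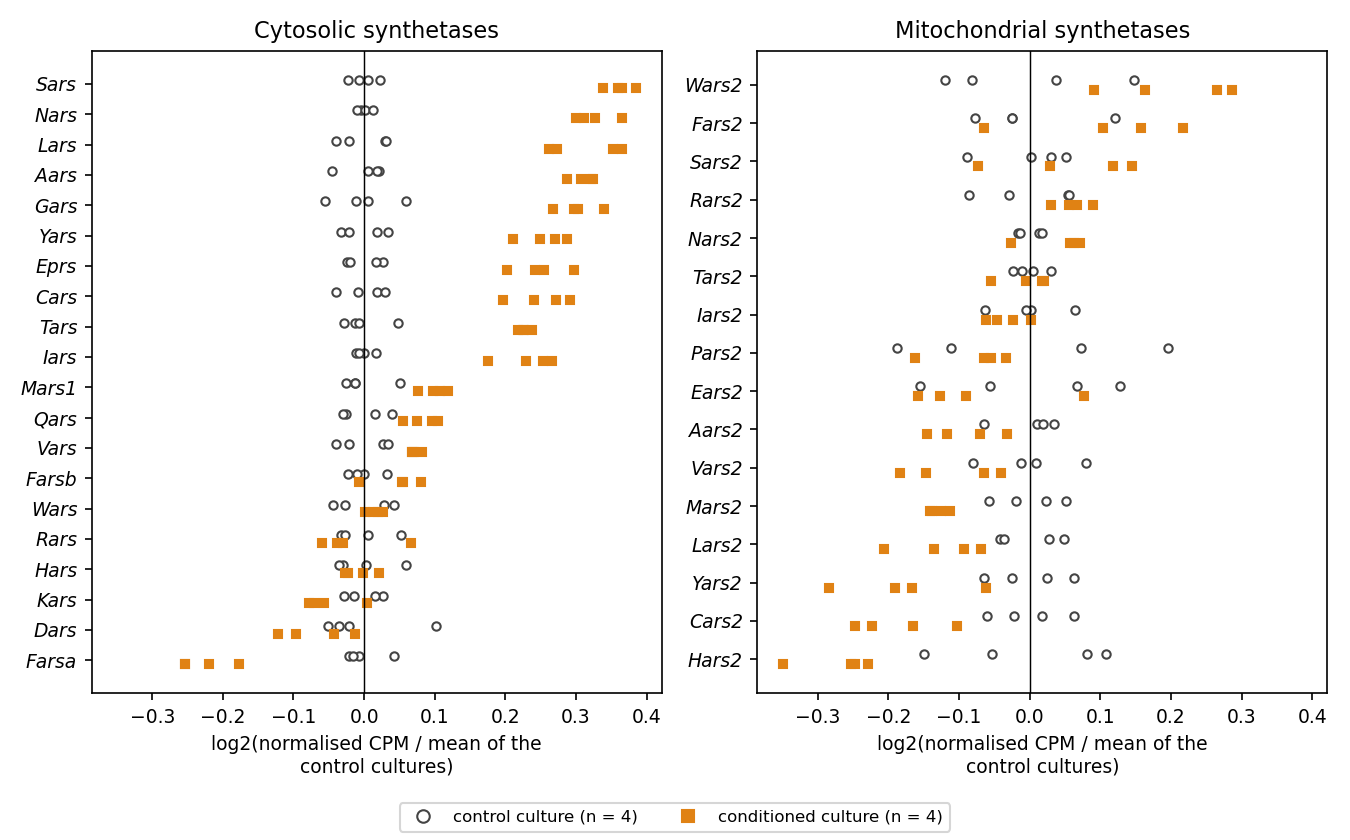
Normalised CPM of each synthetase gene in each culture, as log2 of the ratio to the mean of the 4 control cultures; open circles are control cultures and filled squares conditioned cultures. In the 13 called cytosolic genes that rose all 4 squares lie to the right of all circles, while in most mitochondrial genes circles and squares overlap.

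Smaller rises were found for Mars1, Qars and Vars. Mars1, the methionine enzyme, which also serves initiator transfer RNA, had 173, 181, 173 and 172 normalised CPM in control and 190.0, 187, 184 and 188 in conditioned medium (log2 fold change 0.10 ± 0.03 SE, adjusted p = 0.00772 in edgeR). Its 3′ neighbour on the opposite strand is Ddit3, which overlaps 1.99% of its exon length. Qars, for glutamine, had 158, 161, 154 and 153 against 167, 168, 163 and 165, so the nearest cultures were only a little apart (log2 fold change 0.08 ± 0.03 SE, adjusted p = 0.0310 in edgeR). Vars, for valine, had 620.2, 624, 599.7 and 592 against 638, 644, 639.8 and 638. The conditioned cultures of Vars were nearly equal, and its log2 fold change was 0.07 (± 0.03 SE, adjusted p = 0.0318 in edgeR). The Vars call was lost with scaling by total counts (adjusted p = 0.110) and in 5 of 8 fits that left out 1 culture, with adjusted p up to 0.104. The Qars call was lost with total counts (0.101), with DESeq2 (0.0524) and in 4 of those 8 fits, with adjusted p up to 0.0804.

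Cytosolic phenylalanyl-tRNA synthetase is built from a pair of different subunits, and their mRNAs did not move alike. Farsa, the alpha subunit with the catalytic site (ENSMUSG00000003808, chromosome 8, 84856989 to 84869257), had 89.3, 85.4, 86.2 and 85.8 normalised CPM in control medium and 74.4, 72.7, 72.7 and 76.7 in conditioned medium. Every conditioned culture lay below every control culture, with a log2 fold change of -0.23 ± 0.03 (SE; adjusted p = 8.00e-06 in edgeR). Farsb, the beta subunit, had 114, 117, 113 and 114 against 119, 121, 119 and 114. Its groups overlapped, and its log2 fold change was 0.04 with a 95% interval of -0.02 to 0.11 (edgeR adjusted p = 0.296). The intervals of the subunits, -0.30 to -0.15 and -0.02 to 0.11, do not meet, but the difference between the genes was not itself tested.

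The other cytosolic genes not called were Wars, Rars, Hars, Kars and Dars, for tryptophan, arginine, histidine, lysine and aspartate. Kars, the other gene that serves both compartments, had 352, 349, 362 and 359.7 normalised CPM in control and 357, 342, 337 and 339 in conditioned medium. Conditioned replicate 1 fell among the controls and the other 3 lay below them (log2 fold change -0.05, 95% interval -0.10 to 0.01). Dars had 202, 224, 206 and 204 against 195, 207, 203 and 192, with control replicate 2 the highest (log2 fold change -0.07, 95% interval -0.14 to -0.00, edgeR adjusted p = 0.116). Without control replicate 2 the log2 fold change of Dars was -0.03 (edgeR adjusted p = 0.424). With scaling by total counts Dars and Kars were called lower, with adjusted p of 0.0296 and 0.0333. Rars had 169, 173, 179 and 169 against 169, 181, 168 and 166, and Hars 113, 115, 119.8 and 112 against 113, 117, 115 and 113, so their cultures were mixed. The 95% intervals were -0.08 to 0.05 for Rars, -0.07 to 0.06 for Hars and -0.05 to 0.07 for Wars, and none of them reached 0.23, the smallest change in the upper range.

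The cytosolic genes were also grouped by class and by membership of the complex. Of 9 class I genes 7 rose and 0 fell, and of 10 class II genes 5 rose and 1 fell, with median log2 fold changes of 0.10 and 0.14, beside 15.7% higher and 14.8% lower over all tested genes. Eprs, which holds a domain of each class, was counted apart. In the complex 5 of 8 genes rose (Eprs, Iars, Lars, Mars1 and Qars), and Dars, Kars and Rars did not pass the test (median 0.09). Outside it 8 of 12 rose and 1 fell (median 0.24). The mRNAs of the 8 synthetases of the complex had log2 fold changes from -0.07 to 0.31.

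The proteins that hold the complex together are Aimp1, Aimp2 and Eef1e1, which are not enzymes. Aimp1 rose from 86.7 ± 1.42 to 92.8 ± 0.562 normalised CPM (SD, n = 4 each; log2 fold change 0.10 ± 0.03 SE, adjusted p = 0.0205 in edgeR). Eef1e1 fell from 21.4 ± 0.456 to 19.2 ± 0.367 (log2 fold change -0.16 ± 0.06 SE, adjusted p = 0.0355 in edgeR). Aimp2 was not called, with a log2 fold change of -0.08 (SE 0.04), and 29.4% of its exon length overlaps Eif2ak1 on the opposite strand, so its count is uncertain. For Aimp1 that overlap is 2.91%, with Tbck. Aimp1 and Eef1e1 thus moved in opposite directions.

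Among the mitochondrial genes the largest fall was that of Hars2, the histidine enzyme (ENSMUSG00000019143, chromosome 18, 36783008 to 36792562). It had 26.6, 22.6, 24.2 and 27.1 normalised CPM in control and 19.7, 21.4, 21.1 and 21.2 in conditioned medium. The control cultures were spread more widely than the conditioned ones, yet the groups did not overlap (log2 fold change -0.27 ± 0.06 SE, adjusted p = 0.00130 in edgeR). Hars2 and Hars are neighbours that start back to back on opposite strands, and 4.56% of the exon length of Hars2 and 7.97% of that of Hars lie within each other's exons. Whether the counting used strand is not given in the sources used here, so reads in that stretch cannot be assigned. The pair also encodes closely related proteins. Genes on the opposite strand likewise overlap 22.9% of the exon length of Iars2, 10.7% of Fars2, 9.47% of Farsb, 5.83% of Cars2, 1.73% of Ears2 and 0.505% of Yars, and these genes carry the same uncertainty.

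Cars2, for cysteine, had 27.4, 25.8, 25.1 and 26.5 normalised CPM against 22.1, 23.4, 22.4 and 24.4, with all conditioned cultures below all controls (log2 fold change -0.19 ± 0.06 SE, adjusted p = 0.0107 in edgeR). Yars2, for tyrosine, had 37.3, 35.1, 34.2 and 36.3 against 34.2, 31.3, 31.8 and 29.3. Conditioned replicate 1 of Yars2 touched the lowest control (log2 fold change -0.17 ± 0.05 SE, adjusted p = 0.0111 in edgeR), and the call was lost without control replicate 1 (0.0538) or conditioned replicate 4 (0.0542). Lars2, for leucine, had 119.9, 122, 114 and 115 against 102, 107, 110.2 and 112, and Mars2, for methionine, 47.9, 50.7, 49.2 and 51.7 against 45.2, 46.1, 45.3 and 45.7. Neither overlapped between media, and both had a log2 fold change of -0.13, with edgeR adjusted p of 0.00505 and 0.0150. The Mars2 call was lost without control replicate 4 (adjusted p = 0.0660). The Mars2 gene of GENCODE M21 is a single exon of 11294 bases.

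Wars2, for tryptophan, was the only mitochondrial member called higher. It had 15.6, 18.8, 16.1 and 17.4 normalised CPM in control and 19.0, 20.4, 20.7 and 18.1 in conditioned medium, and control replicate 2 exceeded conditioned replicate 4. Its log2 fold change was 0.20 (± 0.07 SE, adjusted p = 0.0292 in edgeR). The call was lost with DESeq2 (0.0651), with scaling by total counts (0.0509) and without control replicate 1, control replicate 3, conditioned replicate 2 or conditioned replicate 3 (0.103, 0.0777, 0.0811 and 0.109).

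The 10 mitochondrial genes not called had log2 fold changes from -0.11 (Vars2) to 0.11 (Fars2). Vars2, for valine, had 58.2, 52.1, 55.4 and 54.6 normalised CPM against 48.5, 53.6, 49.8 and 52.7, with overlapping groups (edgeR adjusted p = 0.0630). It was called lower with scaling by total counts (adjusted p = 0.0279), without control replicate 2 (0.0153) and without conditioned replicate 2 (0.0499). Tars2, for threonine, and Iars2, for isoleucine, were the most tightly bounded, with 95% intervals of -0.07 to 0.06 and -0.10 to 0.03. Fars2, Ears2 and Pars2 were the least well bounded: they had between 163 and 367 counts in a culture and a standard error of 0.08 each, with 95% intervals of -0.06 to 0.28, -0.24 to 0.08 and -0.24 to 0.07, and those of Ears2 and Pars2 include a fall of the size seen in Lars2. Aars2, Rars2, Sars2 and Nars2 had log2 fold changes of -0.09, 0.06, 0.06 and 0.04. The 95% intervals of Aars2 (-0.20 to 0.01) and Vars2 (-0.20 to -0.02) also include a fall of the size seen in Lars2. Of the 9 mitochondrial class I genes 1 rose and 4 fell, and of the 7 class II genes 0 rose and 1 fell. The class II count and the class I count of rises are near the 14.8% lower and 15.7% higher of all tested genes.

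Levels were compared between genes as normalised CPM per kilobase of exon, using the union of the annotated exons. Gars was highest, at 154 ± 5.05 in control and 189 ± 3.84 in conditioned medium (SD, n = 4 each). Vars (109 ± 2.73 and 114 ± 0.516), Nars (94.9 ± 0.608 and 119 ± 2.35) and Kars (79.7 ± 1.40 and 77.0 ± 2.00) followed, and Nars passed Vars in conditioned medium. Then came a dense group from Rars (53.5 ± 1.46 in control medium) to Wars (42.5 ± 1.23). Within it, Iars (48.1 ± 0.417), Tars (48.0 ± 1.11), Dars (47.9 ± 2.38) and Hars (47.0 ± 1.43) each differed from the next by less than the SD of either gene. Farsa was the lowest cytosolic gene, at 19.1 ± 0.392 and 16.3 ± 0.412, while Farsb was at 43.7 ± 0.716 and 45.1 ± 1.15.

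All mitochondrial genes lay below all cytosolic ones in control medium. The highest was Rars2, for arginine, at 15.9 ± 0.759 in control and 16.6 ± 0.280 in conditioned medium, where it and Farsa differed by less than their SDs. Iars2 (15.7 ± 0.563 in control) and Tars2 (14.2 ± 0.228) came next, and Fars2 was lowest at 1.73 ± 0.104. The union of exons includes long or rarely used exons, so a level per length can be understated, as for Mars2 with its single long exon.

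**Figure D3:**
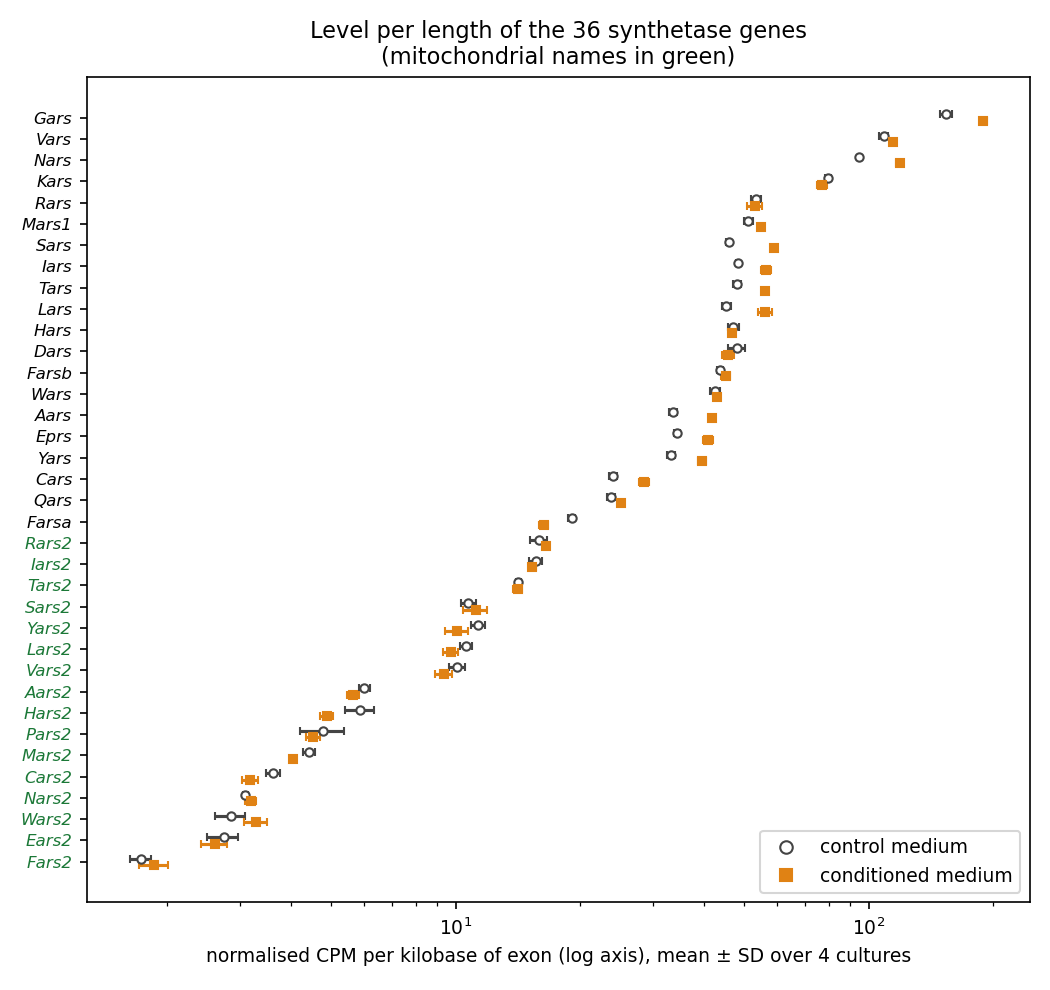
Level per length of the 36 synthetase genes on a log axis, mean and SD over 4 cultures in control medium (open circles) and conditioned medium (filled squares), ordered by the mean over all cultures, with mitochondrial names in green. Gars stands highest at 154 in control medium, Fars2 lowest at 1.73, and the cytosolic genes lie above the mitochondrial ones except that Farsa and Rars2 meet in conditioned medium.

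A cytosolic and a mitochondrial gene for the same amino acid were set side by side in 15 pairs, with Eprs paired to both Ears2 and Pars2. Phenylalanine was left out of the pairs. Both of its cytosolic genes, Farsa (log2 fold change -0.23) and Farsb (0.04), lay below its mitochondrial gene Fars2 (0.11). In 13 of the 15 pairs the cytosolic gene had the larger log2 fold change, and the exceptions were Wars with Wars2 and Rars with Rars2. The log2 ratio of Lars to Lars2 was 0.99, 1.02, 1.05 and 1.11 in control replicates 1 to 4 and 1.51, 1.54, 1.49 and 1.39 in conditioned replicates 1 to 4. That ratio moved by 0.44, the most of all pairs, and Lars rose while Lars2 fell. The ratio of Cars to Cars2 went from 2.60 ± 0.06 to 3.03 ± 0.08 and that of Yars to Yars2 from 2.46 ± 0.04 to 2.89 ± 0.06 (SD, n = 4 each), by 0.43 in both. For histidine the ratio moved by 0.26 with Hars2 lower and Hars at a log2 fold change of -0.01. For tryptophan it went from 3.11 ± 0.13 to 2.92 ± 0.08 with overlapping groups.

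**Figure D4:**
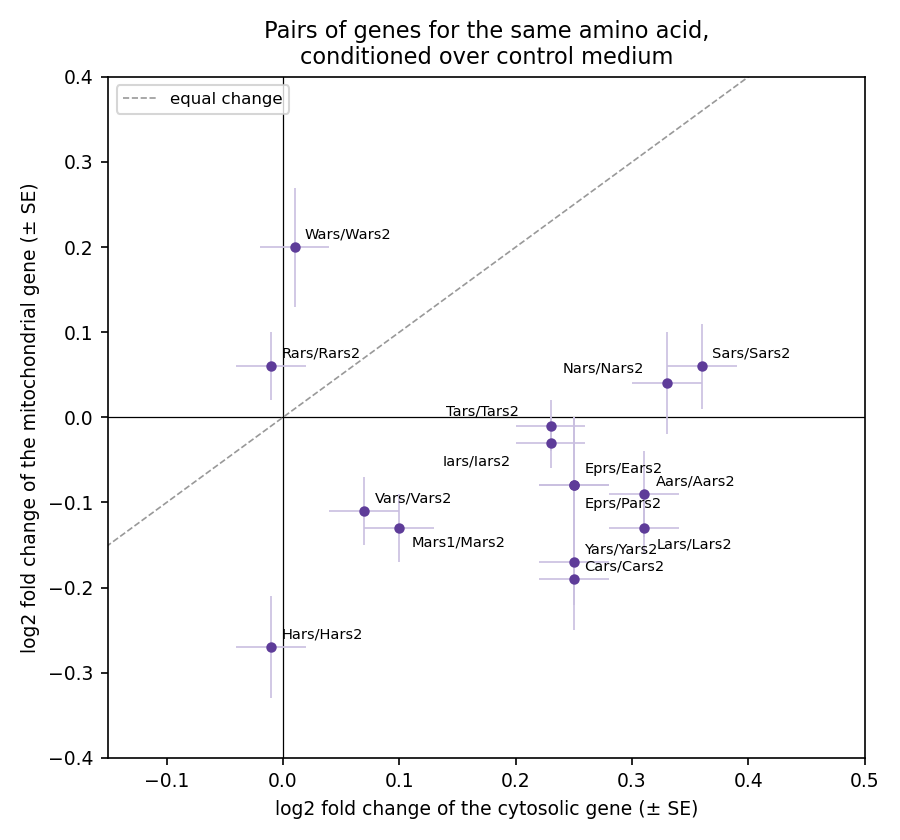
Log2 fold change of the mitochondrial gene (y) against that of the cytosolic gene (x) for the same amino acid, conditioned over control medium, with bars of 1 standard error. Phenylalanine is not shown. The dashed line marks equal change; 13 of 15 pairs lie below it, and Wars with Wars2 and Rars with Rars2 lie above it (Eprs appears with both Ears2 and Pars2, which coincide).

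Charged transfer RNA is carried to the ribosome by elongation factors, which also differ between compartments. All 5 cytosolic elongation factor genes rose, beside 15.7% of all tested genes, with a median log2 fold change of 0.10. Eef2, which moves the ribosome along the mRNA, rose most, at 0.20 (SE 0.03, edgeR adjusted p = 3.14e-07). Eef1a1, which delivers the charged transfer RNA, and Eef1b2, which reloads it with GTP, were each at 0.10, Eef1g was at 0.08 and Eef1d, which overlaps Naprt on the same strand in 4.27% of its exon length, was at 0.08. Of the 4 mitochondrial elongation factor genes 2 fell, beside 14.8% of all tested genes. These were Tufm, the carrier of charged transfer RNA in the matrix, at -0.17 (SE 0.03, edgeR adjusted p = 0.000143), and Tsfm, its exchange factor, at -0.15 (SE 0.06, edgeR adjusted p = 0.0427). Gfm1 and Gfm2 were not called, at -0.02 and -0.01. Genes on the opposite strand overlap 5.68% of the exon length of Tsfm, 5.77% of Gfm2, 1.43% of Gfm1 and 0.355% of Eef1b2.

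Other genes of charging and proofreading reported here had small changes that did not pass edgeR's test. They included Tarsl2, a further cytosolic threonine enzyme (log2 fold change 0.06, SE 0.05), and Qrsl1 and Gatc, subunits of the enzyme that makes glutaminyl-tRNA in mitochondria (-0.12 and -0.01). Mtfmt, which formylates mitochondrial initiator transfer RNA, was at -0.17 (SE 0.08, adjusted p = 0.102 in edgeR). Gatb, Aarsd1 and Pstk had 0 counts in all cultures. In GENCODE M21 the whole span of each lies within other listed genes, while their exons overlap those of other genes by 0%, 41% and 58.8% of their length, and the part of overlap in the zeros was not tested.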

How the data were processed

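RNA was measured in 8 cultures, 4 per medium. The deposited values are raw counts per Ensembl gene ID. The submitters' processing notes name STAR 2.7.5a, featureCounts 2.0.1 and mm10; the annotation, the use of strand and the use of molecular barcodes are not given in the sources used here. The library kit was Sureselect HS2, per the labels' protocols. Columns were matched to cultures by the number in the header, with 0 columns left over. Symbols, positions and exon lengths came from GENCODE M21 (GRCm38), where 21817 of 21859 IDs matched.

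Genes passing edgeR's filterByExpr were scaled by TMM and fitted with glmQLFit (robust) and glmQLFTest in edgeR 4.0.16 (R 4.3.3), with medium as the term. P-values were adjusted by Benjamini-Hochberg over all tested genes. Standard errors are the absolute log2 fold change divided by the square root of F. The fit was tested on simulated data. A floor of 3 counts was 0.139 to 0.195 CPM, for counting error only.

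The series describes the samples as separate cultures. P-values set the difference between media against the spread between cultures of the same medium. The sample titles do not say whether the conditioned cultures received separate preparations of medium. The members and lists were chosen with earlier results of these data known. All members are accounted for; values per culture were printed for the called members with the largest changes (up to 8 cytosolic and 4 mitochondrial), the 4 uncalled members with the highest level per length and members whose call changed with a setting, and some more for completeness. A few items of the lists and promoters are not reported here. Promoter matches after the start, and the whole promoter of Sars, were added after the values were seen. Alternatives were other scalings and filters, DESeq2 1.42.0, limma-voom 3.58.1, a replicate block, a stricter threshold and leaving out each culture.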

Additional observations from a re-analysis of the deposited data

Results flagged for a closer look

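In each medium, the highest or lowest culture was compared with the other 3 for each synthetase gene and for the summed levels, by the gap to the nearest culture as a share of the range. Of 76 groups of 4 cultures, 2 exceeded the 95% critical value of Dixon's ratio, where chance alone gives about 3.8. Nars2 was lowest in conditioned replicate 3, at 21.2 normalised CPM beside 22.5 to 22.7 in the others (ratio 0.848). The summed cytosolic level was highest in control replicate 2, at 5376 normalised CPM beside 5318.5 to 5326 (ratio 0.869). For the cytosolic sum, control replicate 2 stayed below every conditioned culture. For Nars2, conditioned replicate 3 lay below every control culture (21.36 to 21.87 normalised CPM), whereas the other conditioned cultures lay above them all.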

How the results depend on the processing

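The number of cytosolic genes called higher was 13 and stayed between 11 and 13 under every alternative run. Scaling by total counts called 3 cytosolic genes lower in place of 1 and 0 mitochondrial genes higher in place of 1; the cytosolic median became 0.14 and the difference between media in summed cytosolic level 632.0 normalised CPM in place of 716.6. DESeq2 called 0 mitochondrial genes higher. At an adjusted p under 0.01, 0 mitochondrial genes were higher and 2 lower, in place of 5. Leaving out 1 culture gave 11 to 13 cytosolic genes higher, 1 lower, 0 to 1 mitochondrial genes higher and 4 to 6 lower; medians of 0.16 to 0.17 (cytosolic) and -0.09 to -0.02 (mitochondrial); and differences in summed level of 698.6 to 759.5 and -32.1 to -23.4 normalised CPM. Log2 fold changes near 0 changed sign for Wars with total counts (-0.01) and, on leaving out 1 culture, for Hars (range -0.01 to 0.01), Rars (-0.04 to 0.00) and Tars2 (-0.01 to 0.01), none of which was called. With the replicate block, 13 cytosolic genes were higher and 1 lower and 1 mitochondrial gene was higher and 5 lower; the mitochondrial median was -0.07. Over all tested genes the block called 3446 in place of 3273. Same-numbered cultures had a mean correlation of deviations of 0.037 (from -0.051 to 0.143), beside -0.013 for differently numbered ones. Of 8 cultures, 3 correlated best with their own number. With 4 cultures per medium, these values cannot tell whether same-numbered cultures shared any handling, which the labels do not state. The cause of these shifts was not tested.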
